A study of Oryza sativa Japonica Group with 38 samples.

Results

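The 556 loci described here are the short, single-exon members of the rice (Oryza sativa, japonica) long noncoding RNA catalogue that carry RAP identifiers, the locus names of the Rice Annotation Project. They were chosen from the deposited list of annotated lncRNAs by 4 criteria, namely an identifier beginning with OS, the longest transcript of each gene, 1 exon, and an exon length under 600 nt. They make up 556 of the 7231 loci in both deposited lists, and 556 of the 1873 RAP loci. The 403 single-exon RAP loci of 600 nt or more serve as the nearest set for comparison. None of the choosing criteria used an expression value.

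Long noncoding RNAs are transcripts that are not known to be translated. Most RNA polymerase II transcripts receive a poly(A) tail, and oligo(dT) capture divides RNA that carries such a tail from RNA that lacks one or has lost it. Some noncoding transcripts stay in the nucleus, others are exported, and some are precursors that are cut into microRNAs or small interfering RNAs, which are collected in small RNA libraries. A locus with 1 exon yields an RNA without splice junctions.

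The study asked, per its title, how lncRNAs respond to stress. Seedlings, sampled at 2 weeks, had grown in a cycle of 12 h light (28 °C) and 12 h dark (22 °C). The treated groups were cold (4 °C), drought, heat (50 °C), high light (50000 lux) and salt (high salt, NaCl at 300 mM). Leaves, roots and panicles were labelled as untreated tissues of seedlings of 2 weeks, panicles included, and untreated whole seedlings were the group against which the treatments were set. Each condition gave poly(A)-, nuclear, small RNA and poly(A)+ RNA. By the labels the nuclear RNA was nuclear total RNA and the other fractions were whole cell RNA. Every group had 1 library, apart from drought poly(A)- and poly(A)+ RNA with 2 libraries each, for which the tables hold 1 column each. The labels do not state how long the treatments lasted.

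Values are FPKM, fragments scaled for exon length and library depth, so levels can be set beside each other between loci. The recovered depth was 24.59 to 105.3 M reads in the 23 long RNA columns used and 39.67 to 85.77 M in the 9 small RNA columns. The shallowest was untreated nuclear RNA, in which all 490 and 1897 values checked in the 2 lists were whole reads at this depth. The leaves poly(A)+ column and the panicles poly(A)-, nuclear and poly(A)+ columns come from different libraries in the 2 deposited lists, and they were left out of the comparisons. A level of 1 FPKM at a length of 200 nt stood for 10.04 to 20.1 reads in the poly(A)- columns, 4.92 to 18.98 in the nuclear columns, 7.93 to 17.2 in the small RNA columns and 10.1 to 21.1 in the poly(A)+ columns. Intervals and limits given here cover counting error only.

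The members were 200 to 599 nt long, with a median of 381 nt. Just inside the threshold lay OS10G0205400 (599 nt, mean 5.54 FPKM in poly(A)+ RNA), OS02G0718100 (597 nt, 16.4 FPKM) and OS08G0229200 (597 nt, 9.72 FPKM). Just outside lay OS05G0594001 (600 nt, 0.105 FPKM), OS06G0265950 (601 nt, 0.177 FPKM) and OS07G0115650 (601 nt, 0.0116 FPKM). Every member had a single transcript in the list. Members lay on all 12 chromosomes, from 21 on chromosome 9 to 73 on chromosome 1. The plus strand carried 282 of them. Coordinates are printed as deposited, and since lengths of end minus start gave whole reads, deposited starts may count from 0.

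Most members stood apart from other listed loci. The median distance to the nearest other listed locus was 20156 nt, and 31 members lay within 1000 nt of one. None overlapped a listed locus on the same strand, and 8 overlapped one on the opposite strand. All 8 partners were RAP loci, and 6 of the 8 members formed 3 pairs among themselves. Positions relative to protein-coding genes were not analysed here.

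By the authors' deposited classes, 338 members (60.8%) were poly(A)+ and 163 (29.3%) were bimorphic (found in both kinds of RNA). Another 9 (1.62%) were poly(A)- and 46 (8.27%) were too low to class. The longer single-exon RAP loci were near this, with 60.8%, 27.8%, 1.49% and 9.93% in the same order. All loci had 53.7%, 19.7%, 5.38% and 21.2%. For location, 409 members were classed as cytosol, 43 as nucleus, 42 as bimorphic and 62 as low. Both classes applied together to 273 members that were poly(A)+ and cytosol. The bimorphic members had a median length of 345 nt and the poly(A)+ members of 413 nt, and the 9 poly(A)- members had a median of 265 nt. These classes rest on the same columns as the values below and are not separate evidence.

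More members reached 1 FPKM in poly(A)+ RNA than in any other fraction, and the same was true of both other sets. Of the 556, 175 (31.5%) reached 1 FPKM in at least 1 poly(A)- column, 76 (13.7%) in a nuclear column, 28 (5.04%) in a small RNA column and 320 (57.6%) in a poly(A)+ column. The longer single-exon RAP loci reached it in 13.9%, 10.9%, 7.44% and 43.4% of cases, and all 7231 loci in 20.9%, 15.05%, 18.9% and 52.6%. Short members were thus listed at 1 FPKM more often than the longer loci in all 3 long RNA fractions, and less often in small RNA. None of these differences was tested. The number of columns was 8, 8, 9 and 7 in the same order of fractions, so shares compare between sets and not between fractions. In all long RNA columns, 45 members were listed at 0. A count of at least 10 reads in 1 column, in place of 1 FPKM, was met by 286 members in poly(A)- RNA and 211 in nuclear RNA.

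**Figure D1:**
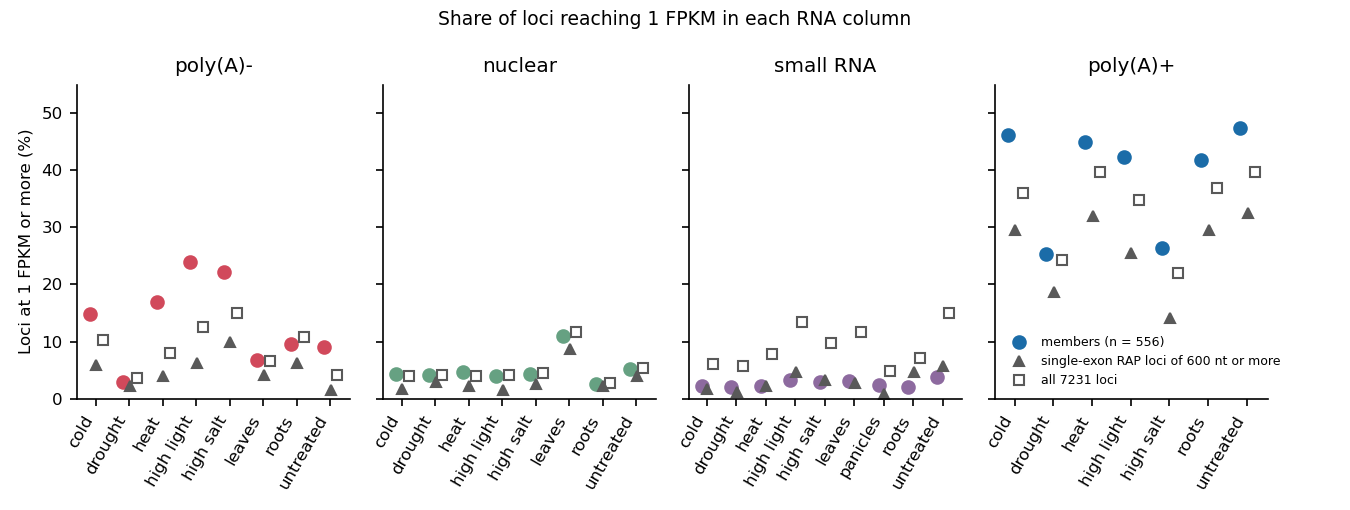
Share of loci at 1 FPKM or more (%, vertical axis) in each of the 32 RNA columns used, by condition (horizontal axis) and fraction (panels), for the 556 members (filled circles), the 403 single-exon RAP loci of 600 nt or more (triangles) and all 7231 loci (open squares). Members lie above both other sets in every poly(A)+ column, and highest in poly(A)- RNA in high light (23.9%) and high salt (22.1%). The 7231 loci include 1849 EPlOSAG loci, of which 1.84% reached 1 FPKM in any poly(A)+ column.

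The number of members at 1 FPKM differed between conditions. Poly(A)+ RNA held 257 in cold, 141 in drought, 250 in heat, 235 in high light, 147 in high salt, 232 in roots and 263 in untreated seedlings. Drought and high salt were thus far below the other columns, and the share of all loci was also lowest there, at 24.3% and 21.9%, against 39.7% in untreated seedlings. Poly(A)- RNA held 82 members in cold, 16 in drought, 94 in heat, 133 in high light, 123 in high salt, 38 in leaves, 53 in roots and 50 in untreated seedlings. High salt was low in the one fraction and high in the other. In these bulk samples fewer cells of a type and less RNA per cell cannot be told apart, and with 1 column a group no test between conditions was possible.

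A few members carried much of the poly(A)+ signal. OS10G0518150 (chr10:20028777-20029168, plus strand, IRGSP-1.0 as deposited) had the highest mean, 95.6 ± 36.9 FPKM (SD over 7 conditions, as in the following sentences). It was also the steadiest of the leading loci, with 123 FPKM in cold, 81.2 in drought, 78.4 in heat, 87.1 in high light, 48.7 in high salt, 87.6 in roots and 163 in untreated seedlings. OS02G0718950 (chr2:29824199-29824438, minus strand) averaged 87.5 ± 54.5 FPKM and OS05G0591925 (chr5:29487114-29487459, plus strand) 68.6 ± 52.1 FPKM, with no column of either under 20.7 FPKM.

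The other 5 leading members depended on the condition. OS12G0559250 (204 nt) was highest in drought, at 480 FPKM, and lowest in roots, at 0.0465 FPKM. OS03G0835950 was highest in roots (374 FPKM) and lowest in high salt (16.7 FPKM), and OS12G0115050 was highest in cold (189 FPKM) and lowest in roots (0.232 FPKM). OS04G0619450 (7.12 to 169 FPKM) and OS04G0492450 (5.497 to 158 FPKM) were lowest in high salt and highest in untreated seedlings. In drought poly(A)+ RNA the 1 locus OS12G0559250 held 25.1% of the summed FPKM of all members.

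The leading members in poly(A)- RNA were classed as bimorphic by the authors. OS12G0115050 had 14.8 FPKM in cold, 0.231 in drought, 27.1 in heat, 93.5 in high light, 24.8 in high salt, 2.57 in leaves, 0 in roots and 39.9 in untreated seedlings. OS08G0233000 (chr8:8070576-8070804, plus strand) had 7.85, 0.290, 19.4, 27.5, 19.2, 1.22, 0 and 12.4 FPKM in the same columns. OS06G0199300 was at 42.8 FPKM in high salt and 5.15 FPKM in untreated seedlings, and OS04G0399200 at 20.1 FPKM in high light and 12.5 FPKM in untreated seedlings. All 4 were low in drought, leaves and roots, at no more than 2.94 FPKM. In high salt, OS06G0199300 and OS04G0399200 had more in poly(A)- RNA (42.8 and 13.6 FPKM) than in poly(A)+ RNA (36.2 and 12.05 FPKM).

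Poly(A)- RNA held less of most members than poly(A)+ RNA, as it did of most loci in the lists. In limma over 7 conditions, with condition as a block, 188 of the 268 members tested had lower levels in the poly(A)- fraction (70.1%; 74.5% of the 2859 loci tested) and 1 was higher (0.373%; 4.2% of loci). A call needed an adjusted p under 0.05 (Benjamini-Hochberg over all loci tested) and a difference of 2-fold on the log2(FPKM + 1) scale. The median difference was -1.36 over members and -1.51 over all loci tested, so the share of lower members was near the background. With each column centred on its median, 27 members were lower and 20 higher, against 472 and 245 of the 2859 loci tested. The filter was 1 FPKM in at least 3 of the tested columns. It let 101 of the 268 in through poly(A)+ RNA alone, for which a lower value was built in. It let 1 in through poly(A)- RNA alone, for which a higher value was built in. Of the 268, 259 had 1 FPKM in 3 or more poly(A)+ columns and only 99 in 3 or more poly(A)- columns. Members beyond the 101 thus also needed their poly(A)+ columns to pass, which favoured lower calls. The other 288 members were not tested.

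The 8 largest differences of the same sign in all 7 conditions were of 3.53 to 4.42 on the log2 scale. OS05G0591925 had 1.90 ± 1.95 FPKM in poly(A)- RNA and 68.6 ± 52.1 FPKM in poly(A)+ RNA (SD, 7 conditions), a log2 difference of -4.42 ± 0.44 (SE, limma adjusted p = 5.5e-17). OS07G0498150, a locus of 500 nt, had 0.417 ± 0.594 and 29.8 ± 27.04 FPKM in the same order, or -4.07 ± 0.40 on the log2 scale (SE). Its highest poly(A)- value was 1.71 FPKM and its lowest poly(A)+ value 6.20 FPKM. With that poly(A)- mean it could pass the filter only by its poly(A)+ columns, so no p is given for it. OS10G0518150, the member of highest mean, was at 2.31 to 9.25 FPKM in poly(A)- RNA and 48.7 to 163 FPKM in poly(A)+ RNA, with no overlap. The ranges of OS04G0408650, OS07G0645050, OS05G0388550, OS03G0452801 and OS01G0626350 did not overlap either, their log2 differences lying between -3.66 and -3.53.

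OS12G0424062 (chr12:13400104-13400378, minus strand, 274 nt) was the 1 member higher in poly(A)- RNA. It had 4.04 FPKM in cold, 0.181 in drought, 1.74 in heat, 8.06 in high light, 6.52 in high salt, 1.47 in roots and 2.71 in untreated seedlings. The poly(A)+ columns listed it at 0 in 6 of 7 cases and at 0.0356 FPKM in cold. The fractions did not overlap, and the log2 difference was 1.90 ± 0.32 (SE, 7 conditions). Since it passed the filter through poly(A)- RNA alone, its direction was set by the filter and no p is given. Nuclear RNA held 0.0692 to 1.04 FPKM of it and small RNA 0.374 to 2.52 FPKM. An assembled locus, XLOC_029548, begins 72 nt away, and whether both belong to 1 transcript was not tested.

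**Figure D2:**
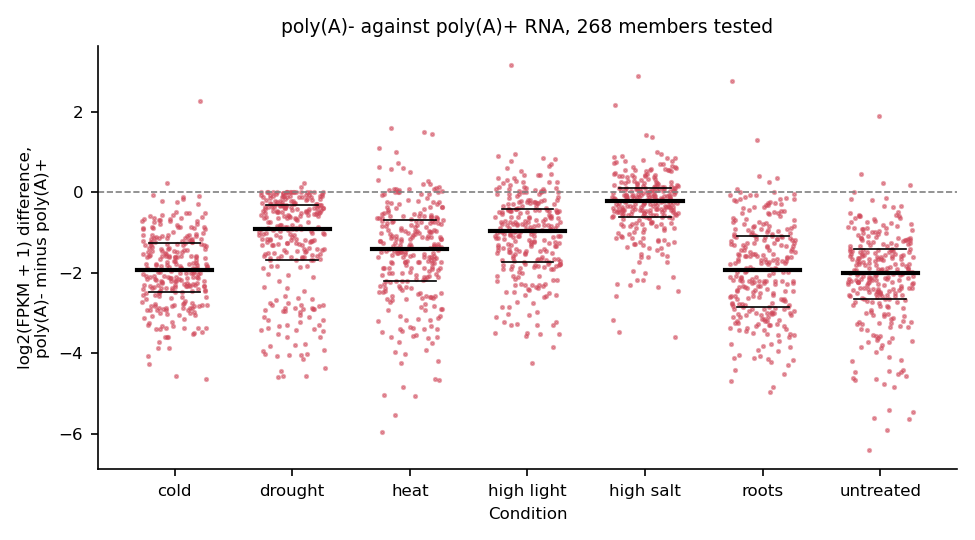
Difference in log2(FPKM + 1), poly(A)- minus poly(A)+ RNA (vertical axis), of each of the 268 members tested (points) in each of the 7 conditions (horizontal axis), with the median (thick line) and quartiles (thin lines). The median is -0.21 in high salt, where 92 members lie above 0, and -2.02 in untreated seedlings.

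Members with more in the poly(A)- fraction were most frequent in high salt, high light and heat. Among members at 1 FPKM in either column, the poly(A)- value was above the poly(A)+ value for 2 of 259 in cold, 0 of 141 in drought, 21 of 254 in heat (8.27%), 34 of 242 in high light (14.0%), 63 of 165 in high salt (38.2%), 3 of 235 in roots and 1 of 264 in untreated seedlings. For all loci the shares were 5.65% in cold, 4.36% in drought, 6.13% in heat, 7.94% in high light, 22.96% in high salt, 6.62% in roots and 3.37% in untreated seedlings. For the longer single-exon RAP loci they were 0.840%, 0%, 2.31%, 3.85%, 20.3%, 5.6% and 0% in the same order. High salt was thus highest in all 3 sets, while roots was above heat in both other sets and not among members. With 1 column per group and fraction, the scaling of the 2 libraries and the transcripts cannot be told apart in any of these shares.

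Of the 21, 34 and 63 members, 8 were shared by heat, high light and high salt (38.1%, 23.53% and 12.7% of them). Of all loci, 124 were shared by these 3 conditions, or 68.13%, 59.62% and 30.32% of such loci, so the members' overlap was not above the background. They were OS01G0305300, OS02G0178300, OS02G0306600, OS02G0618000, OS04G0655100, OS06G0676900, OS12G0424062 and OS12G0507350. OS04G0655100 (chr4:33415315-33415634, minus strand) was the most abundant of the 8. Its poly(A)- level was 12.0 FPKM in heat, 14.5 in high light, 21.8 in high salt and 9.70 in untreated seedlings. Its poly(A)+ level was 5.48 FPKM in heat, 6.94 in high light, 12.9 in high salt and 31.4 in untreated seedlings. The 2 fractions of this locus thus stood in opposite order in the 3 stresses and in untreated seedlings. OS12G0507350 had the same order, with 2.95, 4.05, 5.73 and 1.70 FPKM in poly(A)- RNA of those 4 groups and 2.17, 1.68, 2.88 and 3.03 FPKM in poly(A)+ RNA.

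On the mean over columns, short members were detected more often in poly(A)- RNA, while poly(A)+ RNA showed no such order. Members of 200-299 nt (n = 159) reached 1 FPKM in a mean of 18.4% of cases over the 8 poly(A)- columns, members of 300-399 nt (n = 144) in 15.1%, members of 400-499 nt (n = 126) in 9.43% and members of 500-599 nt (n = 127) in 8.47%. Over the 7 poly(A)+ columns the same bins gave 38.8%, 40.5%, 38.9% and 38.5%. Single poly(A)+ columns differed, since drought gave 20.75%, 24.3%, 22.2% and 35.4%, high salt 29.6%, 27.8%, 23.8% and 23.6%, and cold 47.8%, 48.6%, 46.8% and 40.9%. High light had the widest range in poly(A)- RNA, with 31.4%, 29.2%, 20.6% and 11.8%. Roots, at 9.43%, 9.72%, 10.3% and 8.66%, and drought, at 3.77%, 2.08%, 2.38% and 3.15%, showed no such order. Across members, length and mean level were nearly unrelated (Spearman's rho -0.068 in poly(A)- RNA and 0.0204 in poly(A)+ RNA, n = 556 loci that share libraries). Since FPKM divides by length, 1 FPKM needs fewer reads in a short locus, and how this or the selection of fragment sizes bears on the shares was not tested.

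**Figure D3:**
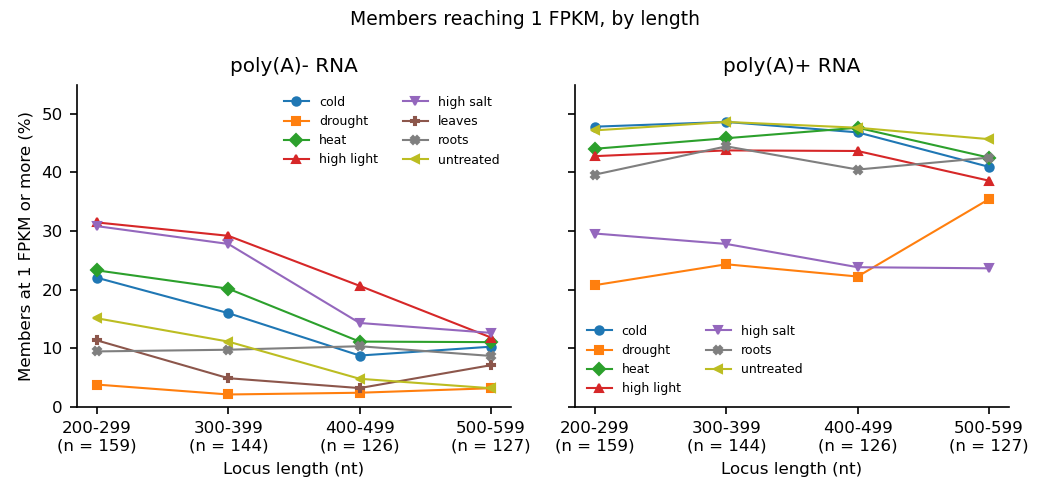
Share of members at 1 FPKM or more (%, vertical axis) by locus length in 4 bins (horizontal axis) in poly(A)- RNA (left) and poly(A)+ RNA (right), with 1 line per condition. In poly(A)- RNA of high light the share is 31.4% in the shortest bin and 11.8% in the longest, and in poly(A)+ RNA of untreated seedlings it is 47.2% and 45.7%.

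Nuclear RNA held still less of the members. In limma over 7 conditions, 222 of the 260 members tested were lower in nuclear than in poly(A)+ RNA (85.4%; 79.2% of the 2786 loci tested) and 1 was higher (0.385%; 1.26% of loci). The median difference was -1.75 over members and -1.69 over all loci tested. After centring on column medians, 45 members were lower and 12 higher, against 534 and 286 of the 2786 loci tested. Of the 260, 218 never reached 1 FPKM in nuclear RNA and had entered through poly(A)+ RNA, for which a lower value was built in. Only 29 had 1 FPKM in 3 or more nuclear columns, and 259 had it in 3 or more poly(A)+ columns. These counts thus describe the members that passed the filter, and 296 members were not tested.

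OS10G0518150 had the largest difference, with 1.26 ± 0.841 FPKM in nuclear RNA and 95.6 ± 36.9 FPKM in poly(A)+ RNA (SD, 7 conditions), a log2 difference of -5.41 ± 0.37 (SE, limma adjusted p = 3.88e-12). OS04G0408801 (chr4:20229020-20229438, plus strand) was the steadiest in both fractions, at 0.684 ± 0.164 and 40.4 ± 10.8 FPKM, or -4.58 ± 0.35 on the log2 scale (SE). Like OS02G0175850 and OS07G0645050, it stayed under 1 FPKM in nuclear RNA and passed the filter through poly(A)+ RNA alone, so the filter set the direction of these 3. OS02G0718950, OS05G0591925, OS03G0835950, OS05G0388550, OS02G0175850 and OS07G0645050 had log2 differences of -4.66 to -4.38, each in 7 of 7 conditions. The poly(A)+ columns are those of the comparison with poly(A)- RNA.

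The smallest gap was that between nuclear and poly(A)- RNA. Over 8 conditions, leaves included, limma called 28 of the 105 members tested lower in nuclear than in poly(A)- RNA (26.7%; 16.8% of the 959 loci tested) and 1 higher (0.952%; 0.938% of loci). The median difference was -0.68 over members and -0.48 over all loci tested. After centring, 9 members were lower and 2 higher, against 73 and 38 of the 959 loci tested, so the share of lower members was then near the background. Of the 105, 52 never reached 1 FPKM in nuclear RNA and 1 never in poly(A)- RNA, so their direction was set by the filter. Only 32 had 1 FPKM in 3 or more nuclear columns, and 99 had it in 3 or more poly(A)- columns. The filter left 451 members untested. The calls depended on the filter and the columns: without a filter 0 members were called (of 556 tested, 105 had an unadjusted p under 0.05), and with all 9 conditions 6 were lower. The lower value held in 8 of 8 conditions for 4 members, OS12G0257450, OS09G0344650, OS04G0408801 and OS02G0175850. Centred on column medians, these 4 differed by -0.99 to -0.59 on the log2 scale, under the 2-fold threshold. The call of OS02G0175850 (-1.01) was also lost without heat, high light, high salt or roots (-0.96 to -0.90) and, like that of OS04G0408801, with all 9 conditions. OS12G0257450 (chr12:8852644-8853021, plus strand) had 0.263 ± 0.208 FPKM in nuclear RNA and 3.18 ± 3.03 FPKM in poly(A)- RNA (SD, 8 conditions), a log2 difference of -1.41 ± 0.29 (SE). OS09G0344650 had 0.145 ± 0.101 and 2.41 ± 1.82 FPKM in the same order, or -1.37 ± 0.27 on the log2 scale (SE). These 2 and OS02G0175850 stayed under 1 FPKM in every nuclear column and passed the filter through poly(A)- RNA alone, so no p is given for them. In drought and leaves, 69 and 77 of the 105 members had more in nuclear RNA. The median difference there was 0.18 and 0.32 over members and 0.12 and 0.35 over all loci tested, so the turn was near the background.

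OS02G0618000 (chr2:24564048-24564603, plus strand, 555 nt) was the member with the strongest nuclear signal, and the authors' location class for it is nucleus. It had 5.46 FPKM in nuclear RNA of cold, 6.53 of drought, 1.64 of heat, 4.11 of high light, 2.36 of high salt, 19.9 of roots and 6.45 of untreated seedlings. In poly(A)+ RNA of the same conditions it had 5.80, 0.306, 0.822, 1.85, 1.46, 0.462 and 0.677 FPKM. Nuclear RNA was above poly(A)+ RNA in 6 of 7 conditions, cold being the exception, with a log2 difference of 1.47 ± 0.40 (SE, limma adjusted p = 0.00121). Leaves nuclear RNA stood apart from the other columns used at 98.4 FPKM. The panicles nuclear column, left out of the comparisons and of uncertain heading, listed a higher value, 613 FPKM. The next highest nuclear means were far lower, at 4.97 ± 3.09 FPKM for OS04G0492450, 4.24 ± 3.04 FPKM for OS04G0619450 and 3.92 ± 2.57 FPKM for OS12G0115050 (SD, 8 conditions), each highest in leaves.

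Against poly(A)- RNA, nuclear RNA held more of OS02G0618000 in 7 of 8 conditions. The means were 18.1 ± 32.9 FPKM in nuclear RNA and 3.37 ± 2.75 FPKM in poly(A)- RNA (SD, 8 conditions), with a log2 difference of 1.27 ± 0.49 (limma adjusted p = 0.0329). The call was lost without drought (1.05), without leaves (0.81) or without untreated seedlings (1.18), with drought and high salt both left out (1.31), with all 9 conditions (1.81), and in a fit on the annotated list alone (1.27). Another member, OS02G0617900, lies 597 nt away on the same strand. It was at 1.10 to 8.16 FPKM in poly(A)+ RNA and at 0 to 0.194 FPKM in nuclear RNA of those 7 conditions, so the neighbours were unlike in fraction.

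Small RNA reads fell on few members. OS02G0618000 led here too, with a mean of 9.19 ± 4.35 FPKM (SD, 9 conditions) and 11.6 FPKM in cold, 6.60 in drought, 9.37 in heat, 14.9 in high light, 14.6 in high salt, 2.42 in leaves, 3.97 in panicles, 8.30 in roots and 10.9 in untreated seedlings. Leaves and panicles were its lowest columns. OS12G0554300 (chr12:22518088-22518639, plus strand) had 2.70 to 14.6 FPKM, highest in drought, and stayed at or below 0.834 FPKM in every long RNA column used. Small RNA was its highest fraction in each of the 7 conditions for which all 4 fractions were used.

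OS11G0156100 and OS03G0376750 were likewise seen mainly in small RNA. OS11G0156100 had 2.04 to 10.3 FPKM there, highest in high light, and at most 0.217 FPKM in the long RNA columns used. OS03G0376750 (chr3:14869716-14869962, minus strand, 246 nt) had 9.22 FPKM in small RNA of untreated seedlings and 0.499 FPKM in that of roots, and it was listed at 0 in all 7 poly(A)+ and all 8 nuclear columns. OS01G0289750 averaged 2.38 ± 0.9796 FPKM in small RNA and was listed at 0 in every poly(A)- and nuclear column. OS02G0176650 was next in small RNA, at 0.897 to 3.77 FPKM. The mean poly(A)+ level of a member said little of its mean small RNA level (Spearman's rho 0.0427), while poly(A)+ and poly(A)- levels went together (rho 0.885, both over 556 members). All of these correlations are across loci of the same libraries. Which small RNAs these reads were was not analysed here.

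**Figure D4:**
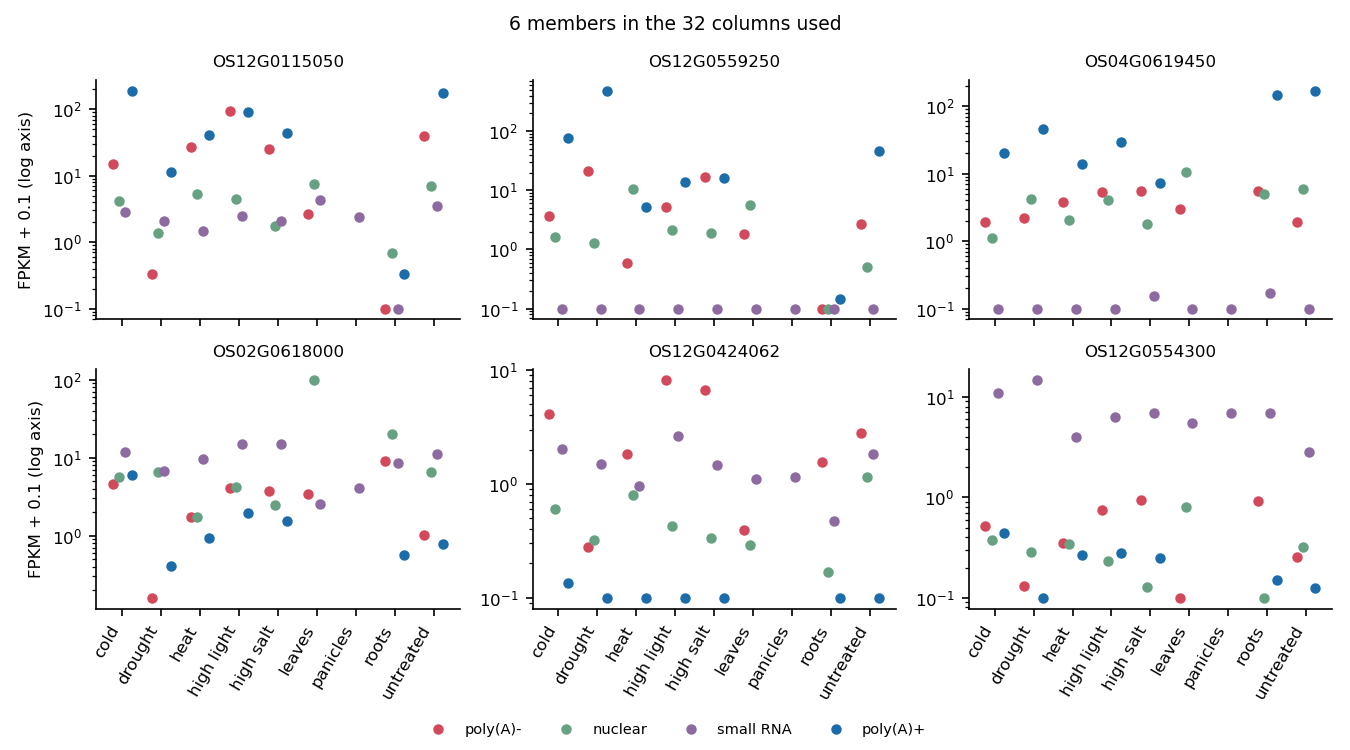
FPKM + 0.1 (log axis) of 6 members in the 32 columns used, by condition (horizontal axis) and fraction (colour), 1 point per library column. OS12G0115050 and OS12G0559250 are at or under 0.597 FPKM in every roots column, OS02G0618000 peaks at 98.4 FPKM in leaves nuclear RNA, OS12G0424062 has its poly(A)- points above its poly(A)+ points in all 7 conditions, and OS12G0554300 is highest in small RNA throughout.

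The stress comparisons, and roots, had 1 column per group in each fraction and therefore no test. A member was counted as higher or lower than in untreated seedlings when it had 1 FPKM in either column and differed by 2-fold on log2(FPKM + 1), after subtraction of the median difference over all loci compared. That median was -0.14 in cold, -1.02 in drought, -0.02 in heat, -0.19 in high light, -1.17 in high salt and 0.08 in roots, so drought and high salt poly(A)+ RNA were shifted down as a whole. Where a member is given as a number of times higher or lower, this is the ratio of the deposited levels, not centred. All 6 comparisons share the untreated column, and a locus that is high there by chance is low in all of them. Bracketed ranges after a level are exact 95% Poisson intervals of the reads.

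In cold, 49 of 289 members were higher (16.96%; 8.74% of all loci) and 31 lower (10.7%; 11.5% of all loci) in poly(A)+ RNA. Without centring 32 were higher and 38 lower, so higher members outnumbered lower ones only after centring. OS02G0178300 was highest by this measure, at 4.43 FPKM (3.63 to 5.37) in cold and 0.116 FPKM (0.0141 to 0.420, 2 reads) in untreated seedlings. OS03G0203451 had 6.17 and 0.795 FPKM, OS02G0618000 5.80 and 0.677 FPKM, and OS08G0202350 10.6 and 2.09 FPKM, cold before untreated. OS04G0635201 (1.63 against 35.1 FPKM) and OS04G0372750 (0.844 against 21.4 FPKM) were lowest, at 21.5 and 25.3 times less in cold. OS04G0619450 and OS04G0492450 were 8.25 and 8.15 times lower.

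In drought, 44 of 275 members were higher (16%; 20.1% of all loci) and 72 lower (26.2%; 13.9% of all loci), or 18 and 171 without centring. OS08G0110650 (chr8:557917-558182, plus strand) had 81.2 FPKM (76.8 to 85.8) in drought and was listed at 0 in untreated seedlings, where 3 reads would be 0.152 FPKM, so it was at least 534-fold higher. It was at 1.21 FPKM in cold and under that in the other 4 poly(A)+ columns used. OS12G0559250 (480 against 45.9 FPKM) and OS05G0296530 (101 against 9.59 FPKM) were 10.5 times higher each. OS05G0214800 had 4.45 and 0.158 FPKM (111 and 5 reads).

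The lowest members in drought were among the more abundant ones of untreated seedlings. This follows from the ranking, since with 1 FPKM added only a member abundant in untreated seedlings can differ so far. OS04G0399200 had 1.33 FPKM in drought and 56.3 FPKM in untreated seedlings, OS02G0257400 had 1.35 and 48.96 FPKM, OS04G0655100 had 0.532 and 31.4 FPKM, and OS05G0555900 had 1.10 and 35.02 FPKM. These were 31.8 to 59.1 times lower, and no counting interval of the pair overlapped. Their log2 differences were -4.62 to -4.10 as deposited and -3.59 to -3.08 after centring. In poly(A)- RNA 30 of 58 members were lower in drought (51.7%; 20.9% of all loci) and 5 higher (8.62%; 21.1% of all loci), or 33 and 4 without centring. Drought is the condition for which the deposited column stands for 1 of 2 libraries or for both.

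In heat, 34 of 287 members were higher (11.8%; 13.2% of all loci) and 66 lower (23%; 15.8% of all loci). OS08G0203650 (chr8:6037883-6038369, minus strand) had 69.3 FPKM (66.6 to 72.0) in heat and 9.14 FPKM (8.19 to 10.2) in untreated seedlings. OS02G0330601 (13.1 against 1.64 FPKM), OS05G0155450 (14.1 against 1.88 FPKM) and OS08G0202350 (12.9 against 2.09 FPKM) were 6.15 to 8.04 times higher. OS08G0202350 had 10.6 FPKM in cold, which shares the untreated column with heat. The lowest were OS04G0372750 (0.264 against 21.4 FPKM), OS05G0495250 (2.71 against 52.5 FPKM), OS04G0619450 (14.0 against 169 FPKM) and OS04G0492450 (15.8 against 158 FPKM).

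In high light, 17 of 278 members were higher (6.12%; 9.67% of all loci) and 45 lower (16.2%; 12.9% of all loci), or 11 and 61 without centring. OS02G0621350 had 14.8 FPKM (12.6 to 17.3) in high light and 2.86 FPKM (2.09 to 3.83) in untreated seedlings, OS02G0148050 17.2 and 4.996 FPKM, OS11G0661350 2.76 and 0.410 FPKM, and OS04G0625950 2.78 and 0.433 FPKM. OS04G0635201 (3.68 against 35.1 FPKM), OS10G0205400 (0.660 against 11.2 FPKM), OS05G0495250 (6.64 against 52.5 FPKM) and OS04G0372750 (2.26 against 21.4 FPKM) were lowest. After centring, high light had the fewest higher members of the 6 comparisons, and without it high salt had, with 3.

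In high salt, 24 of 266 members were higher (9.02%; 11.0% of all loci) and 35 lower (13.2%; 11.9% of all loci), both near the background, and without centring 3 were higher and 175 lower. OS05G0195101 had 13.4 FPKM (12.2 to 14.7) in high salt and 3.92 FPKM (3.35 to 4.56) in untreated seedlings. OS03G0803066 had 8.74 and 2.70 FPKM, and OS02G0178300 had 1.68 and 0.116 FPKM. OS03G0118450 had 14.7 and 7.12 FPKM, a difference that passed only after centring. OS04G0492450 (5.497 against 158 FPKM), OS04G0619450 (7.12 against 169 FPKM), OS04G0635201 (1.15 against 35.1 FPKM) and OS04G0372750 (0.447 against 21.4 FPKM) were 23.7 to 47.8 times lower. Their log2 differences were -4.62 to -3.95 as deposited and -3.44 to -2.78 after centring.

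Since all comparisons share the untreated value, 3 named members of chromosome 4 are given here in all 7 poly(A)+ columns. OS04G0372750 (chr4:18171103-18171646, minus strand) was at 0.844 FPKM in cold, 38.8 in drought, 0.264 in heat, 2.26 in high light, 0.447 in high salt, 14.8 in roots and 21.4 in untreated seedlings. OS04G0619450 was at 20.4, 45.8, 14.0, 29.6, 7.12, 148 and 169 FPKM in the same columns, and OS04G0492450 at 19.5, 10.3, 15.8, 27.4, 5.497, 133 and 158 FPKM. All 3 were high in roots and in untreated seedlings, and OS04G0372750 was highest in drought. OS04G0619450 and OS04G0492450 had close levels in 6 of the 7 columns and were apart in drought. For reads that map to several places, the counting rule is not given in the labels.

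Roots are part of the seedling, and untreated whole seedlings were set beside them. Of 286 members, 35 were higher (12.2%; 13.3% of all loci) and 68 lower (23.8%; 19.9% of all loci) in roots. OS03G0835950 (chr3:35123590-35124074, minus strand) had 374 FPKM (369 to 380.0) in roots and 54.7 FPKM (52.3 to 57.1) in untreated seedlings. OS03G0618366 had 71.9 and 10.7 FPKM, OS12G0221501 25.2 and 3.35 FPKM, and OS08G0203650 52.1 and 9.14 FPKM. These 4 were 5.69 to 7.51 times higher in roots.

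The lowest members in roots were nearly missing there. OS12G0115050 (chr12:733810-734096, plus strand) had 0.232 FPKM (0.0934 to 0.479, 7 reads) in roots and 177 FPKM (171 to 183) in untreated seedlings, 761 times less. OS12G0559250 had 1 read in roots (0.0465 FPKM, 0.00118 to 0.259) and 45.9 FPKM in untreated seedlings. OS02G0257400 (0.414 against 48.96 FPKM) and OS08G0229200 (0.191 against 20.9 FPKM) were 118 and 110 times lower. In poly(A)- RNA of roots, 5 of 87 members were higher (5.75%; 10.4% of all loci) and 40 lower (45.98%; 17.3% of all loci), but without centring 25 were higher and 26 lower. In poly(A)- RNA of leaves, 1 of 71 members was higher (1.41%; 7.29% of all loci) and 43 lower (60.6%; 23.3% of all loci), or 11 and 30 without centring.

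**Figure D5:**
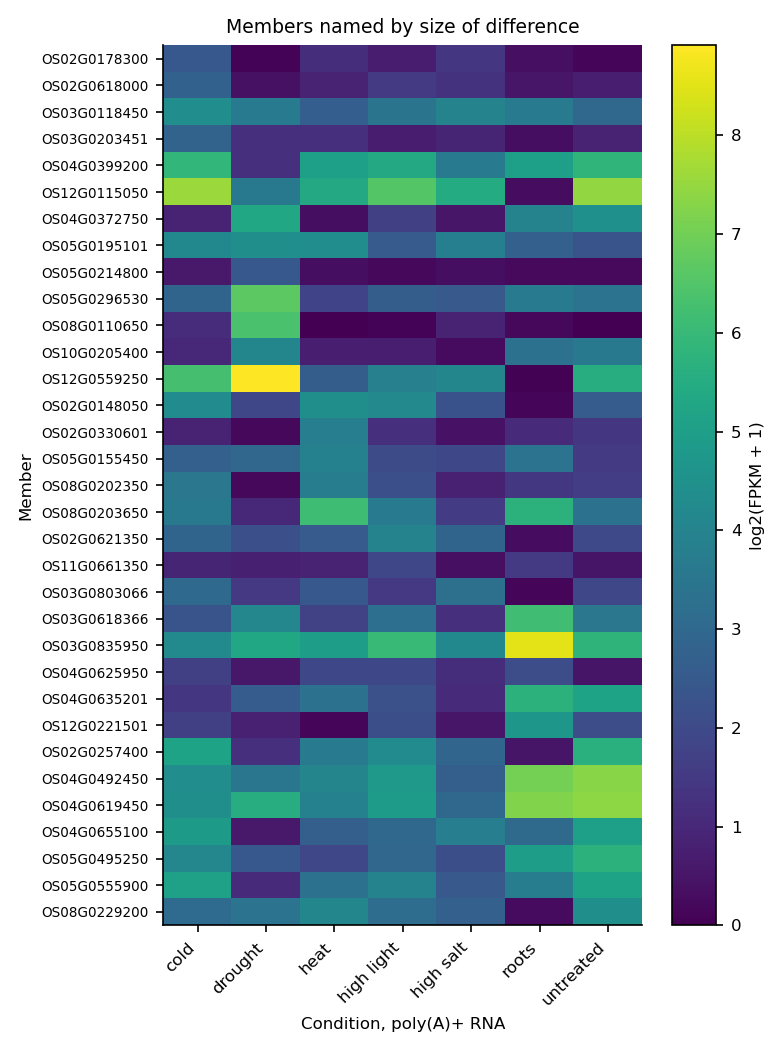
Level, as log2(FPKM + 1) (colour), of the 33 members (rows, ordered by the condition of their highest level) named for poly(A)+ RNA of the stresses and roots, in the 7 poly(A)+ columns used (horizontal axis). OS12G0559250 is brightest in drought (480 FPKM), OS03G0835950 in roots (374 FPKM), and OS04G0492450 and OS04G0619450 in untreated seedlings and roots.

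Few members differed by the same rule in poly(A)-, nuclear and poly(A)+ RNA at once. In cold this was OS02G0562350, which had 4.94 FPKM in poly(A)-, 2.26 in nuclear and 66.4 in poly(A)+ RNA of cold, against 0.298, 0.630 and 35.9 FPKM in untreated seedlings. Its poly(A)+ difference passed only after centring. In drought 3 members were lower in all 3 fractions, OS02G0257400, OS04G0399200 and OS12G0115050, of 8 such loci in the lists. OS12G0115050 had 0.231, 1.27 and 11.1 FPKM in drought and 39.9, 6.97 and 177 FPKM in untreated seedlings, in the order poly(A)-, nuclear and poly(A)+ RNA.

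In high salt OS05G0195101 was higher in all 3 fractions, with 7.30, 1.49 and 13.4 FPKM in high salt and 0.577, 0.351 and 3.92 FPKM in untreated seedlings in that order. This locus was not particular to high salt. Its poly(A)+ level was also past the rule in cold (17.1 FPKM), drought (20.9 FPKM) and heat (19.5 FPKM). So was its nuclear level in cold and drought, and its poly(A)- level in heat. OS02G0257400 was lower in all 3, although its poly(A)- levels, 10.8 FPKM in high salt and 12.4 FPKM in untreated seedlings, differed little before centring. In roots OS03G0835950 was higher, with 20.6, 4.98 and 374 FPKM in roots and 1.20, 1.68 and 54.7 FPKM in untreated seedlings, and OS12G0115050 was lower. Heat and high light had no such member. Over all loci in the lists those higher in all 3 fractions numbered 2 (cold), 8 (drought), 5 (heat), 1 (high light), 3 (high salt) and 12 (roots). Those lower in all 3 numbered 4, 8, 2, 2, 1 and 12 in that order.

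Over the 7 poly(A)+ columns, 320 members reached 1 FPKM at least once. Of these, 84 reached it in all 7 (26.25%, against 29.3% of all loci that reached it once). The highest column was cold for 86 of the 320 (26.9%), roots for 83 (25.9%) and untreated seedlings for 57 (17.8%, against 18.75% of all loci). It was drought for 24 (7.5%, against 7.09%), heat for 52 (16.25%, against 21.5%), high light for 17 (5.31%, against 8.33%) and high salt for 1 (0.31%, against 2.42%). These levels were not centred, and drought and high salt poly(A)+ RNA were shifted down as a whole. Cold was the highest column of 14.8% of the 3807 loci of both lists that reached 1 FPKM, and of 10.9% of the 175 longer single-exon RAP loci, while roots took 27.1% and 26.9% of them. The excess of cold peaks among short members was not tested. More than 50% of the summed poly(A)+ FPKM lay in 1 column for 44 members (13.8%, against 15.6% of all loci). More than 80% did for 3 members (0.94%, against 3.07% of all loci), namely OS08G0536383 in heat and OS08G0110650 and OS04G0668400 in drought. OS08G0536383 was seen in that 1 column only, at 1.09 FPKM.

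Among the overlapping pairs, OS05G0296530 (chr5:13187373-13187922, minus strand) and OS05G0296600 (chr5:13187910-13188220, plus strand) share 12 nt at their ends. They had unlike profiles, OS05G0296530 being at 101 FPKM in drought poly(A)+ RNA and 9.59 FPKM in untreated seedlings, and OS05G0296600 at 3.29 and 7.23 FPKM. In the pair OS04G0668350 and OS04G0668400, which share 344 nt, both peaked in drought, at 2.27 and 1.79 FPKM, and both were at or under 0.281 FPKM in the other 6 columns. The libraries were strand-specific by the labels' protocols, but no label says whether strand was used in counting, so the reads of such a pair may be shared.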

How the data were processed

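The authors deposited, per the file headers, FPKM values of annotated lncRNAs and of assembled XLOC loci in 36 columns (4 RNA fractions of 9 conditions). TopHat2, DESeq2 and IRGSP-1.0 are named, with no role, in the submitters' processing notes. No source used here names the read counter. The members and lists were chosen with earlier results of these data known.

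FPKM times length was a whole multiple of 1 step per column for 99472 of 99472 values checked (within 0.05 reads, up to 200 reads), which gave depths and reads. In 32 columns the step was equal in both lists, and the other 4 were left out, so the tests had 7 or 8 conditions in place of the 9 planned. Fractions were compared with limma 3.58.1 (R 4.3.3) on log2(FPKM + 1), conditions being blocks, with a trended prior and a filter of 1 FPKM in 3 columns, over both lists. Residual degrees of freedom were 6 against poly(A)+ RNA and 7 for nuclear against poly(A)- RNA, where the prior added 187 (poly(A)- RNA), 23.4 (nuclear RNA) and 137, so low p-values depend mainly on the spread that loci share. Conditions served as the replicates of a fraction, and nothing in the labels says that the fractions of a condition came from separate cultures. Tested on simulated data, the fit found 100% of differences of 2.5 (log2) and 75% of those of 1.5 for poly(A)- against poly(A)+ RNA, with 7 false calls among 2859 loci. For nuclear against poly(A)+ RNA it found 100% and 73%, with 1 false call among 2786. For nuclear against poly(A)- RNA it found 99% and 83%, with 1 among 959. In each simulation 200 loci were changed, as many up as down, and the noise of each value was drawn independently. In the data, 74.5% and 79.2% of the loci tested were called lower in poly(A)- and nuclear than in poly(A)+ RNA. The rates thus describe the simulated setting only. How the filter or the scaling of the libraries bears on these rates was not tested.

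Named members were the 8 largest called differences of 1 sign in every condition (or the 3 largest called, where none had it), the highest means per fraction, the 4 highest and 4 lowest per stress and roots, members past the rule in 3 fractions, and those nearest the length threshold. Other members are named for an overlap, a neighbour or a count, and were chosen after their values were seen. None of the identifiers matched the RefSeq table, so no gene names or sequences are given.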

Additional observations from a re-analysis of the deposited data

Results flagged for a closer look

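The panicles columns left out of the comparisons hold signals of members that are at least 10 times their highest level in the columns used of the same fraction. Which of the 2 deposited lists has the right heading for these columns is not known, so the tissue of these values is uncertain. OS06G0319133 (chr6:12366481-12367048, plus strand) had 427 FPKM in the panicles poly(A)+ column and at most 9.07 FPKM in the 7 poly(A)+ columns used, and 10.6 FPKM in the panicles nuclear column against at most 0.836 FPKM. OS01G0800701 had 53.6 FPKM in the panicles poly(A)+ column and at most 0.0296 FPKM in the others.

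Neighbouring members of chromosome 4 were high together. OS04G0668350 had 71.1 FPKM in the panicles poly(A)+ column, 1.87 FPKM in the poly(A)- column and 2.45 FPKM in the nuclear column, against at most 2.27, 0.0469 and 0.162 FPKM in the columns used. OS04G0668300, which ends 1680 nt before it, had 1.38 FPKM in the panicles poly(A)- column and was listed at 0 in all poly(A)- columns used. OS04G0668400, on the opposite strand of OS04G0668350, had 1.90 FPKM in the panicles nuclear column and at most 0.0752 FPKM in the others. In small RNA, where the heading of panicles is not in doubt, OS04G0668300 had 0.582 and OS04G0668400 had 0.779 FPKM in panicles, and both were listed at 0 in the other 8 conditions. In all, 10 members met the 10-fold rule in the panicles poly(A)+ column, 2 in the poly(A)- column and 4 in the nuclear column, and none in the leaves poly(A)+ column.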

How the results depend on the processing

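No paired analysis was possible because, by replicate number, each group has 1 column (the fraction tests did pair the fractions within a condition, through the condition block). Centring on column medians gave 27 members lower and 20 higher for poly(A)- against poly(A)+ (188 and 1 without), 45 and 12 for nuclear against poly(A)+ (222 and 1), and 9 and 2 for nuclear against poly(A)- (28 and 1). For nuclear against poly(A)- RNA, a pseudocount of 0.1 gave 52 lower and 2 higher (300 and 37 of the 959 loci tested). This comparison gave 0 and 0 without a filter (0 and 0 of 7231 loci), and 6 and 0 with all 9 conditions (73 and 3 of 1195 loci). Its 1 higher call was lost (0) on the annotated list alone and with drought and high salt left out together, an alternative chosen after seeing the data, and numbered 0 to 1 when each condition was left out in turn. The other counts of fraction calls stayed within 1.5 times. Without centring, higher members were 32 in cold, 18 in drought, 11 in high light and 3 in high salt, and lower members 171 in drought and 175 in high salt. A pseudocount of 0.1 gave 75 higher and 48 lower in cold, 118 lower in drought, 71 lower in high light, and 48 higher and 55 lower in high salt. At 4-fold, higher and lower members numbered 5 and 9 (cold), 18 and 21 (drought), 7 and 17 (heat), 1 and 10 (high light), 5 and 11 (high salt), 5 and 30 (roots). With a floor of 3 FPKM, 32 were higher in cold and 9 in high light. For the stresses and roots, these alternatives were counted over members only. Without the shares over all loci, the changes cannot be read as particular to members. At least 10 reads were met by 286 members in poly(A)-, 211 in nuclear and 58 in small RNA, and 0.5 FPKM by 162 in nuclear and 60 in small RNA. No member named in the fraction or stress comparisons reversed, while 21 of their 350 alternative values fell short of the call in the fraction comparisons and 4 of 189 in the stress comparisons. Members named for other reasons were not recomputed. The cause of these changes was not tested. The shallowest column was untreated nuclear RNA, where 1 FPKM at 200 nt is 4.92 reads.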
